A study of Homo sapiens with 8 samples.

Results

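RKO cells with CYP1B1 overexpression were compared with RKO control cells by RNA-seq. The comparison rests on 4 of the 8 libraries of the series, chosen by their sample titles: 2 RKO control libraries and 2 RKO overexpression libraries. RKO is an established human colon cancer cell line, and the labels give its tissue as colon. According to its title, the series asks how raising or lowering CYP1B1 alters gene expression while colorectal cancer cells proliferate. The other 4 libraries are of SW480 cells carrying the hairpin shNT, which targets no gene, or shCYP1B1, and they enter here only through the shared estimate of spread and the test of a difference between the lines. The overexpression cells are labelled CYP1B1 overexpression and the control cells CYP1B1 normal control. All RKO cells were grown in DMEM with 10% foetal bovine serum and antibiotics at 37 °C and 5% CO2. The labels describe a CYP1B1 lentivirus without naming its promoter, the virus the control cells received, or whether a line is 1 clone, and the time they give has a unit that could not be interpreted. Whether the replicates are separate cultures is not stated, so the spread behind each p-value is that between these samples and may be technical.

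CYP1B1 encodes a cytochrome P450 of the endoplasmic reticulum that hydroxylates oestrogens, polycyclic aromatic hydrocarbons and fatty acids. It binds a heme group and takes electrons from the reductase encoded by POR. In the cytosolic heat shock system, the factor HSF1 drives genes for HSP70, HSP90 and HSP40 chaperones, which fold nascent and damaged proteins. In the integrated stress response, phosphorylation of the initiation factor eIF2 slows protein synthesis and favours translation of the factor ATF4, which drives genes for amino acid synthesis, amino acid uptake and tRNA charging.

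The RKO libraries held between 31550173 and 34367389 counts. Levels below are CPM, counts scaled to library size with TMM factors, and the values of controls 1 and 2 or of overexpression libraries 1 and 2 are always given in that order. CYP1B1 had 22 and 24 counts in the controls and 15238 and 17360 with overexpression, or 0.686 and 0.701 CPM in the controls and 437 and 519 CPM with overexpression (log2 fold change 9.42, SE 0.18, adjusted p = 7.93e-11). The counts do not separate introduced from resident CYP1B1. The epithelial marker EPCAM stood between 1.69 and 1.99 CPM in the 4 libraries and CDH1 between 0.143 and 0.239 CPM, while KRT18 stood between 176 and 189.5 CPM and the intestinal factor CDX2 between 23.1 and 25.7 CPM. VIL1, a defining gene of intestinal epithelium, had 1 count in each control and none with overexpression. Summed fibroblast markers (6 genes) ranged from 8.29 to 13.3 CPM without TMM in the controls and from 12.2 to 15.3 with overexpression, mostly from COL1A1. COL3A1 rose, with only 18 and 9 counts in the controls and 52 and 39 with overexpression. Its call did not hold with every library left out. PDGFRB had 79 and 104 counts in the controls and 107 and 47 with overexpression. Endothelial markers (4 genes) summed to at most 1.48. Immune markers (5 genes) summed to 786.5 and 715 in the controls and 695 and 671 with overexpression, nearly all from the lysosomal gene CD68, with CD3E at 0 in all 4 libraries. The source of these marker transcripts and their part in any result were not tested.

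The overexpression libraries, called library 1 and library 2 below, stood further apart than the controls. Among 10287 genes with a mean of at least 5 CPM, 62 differed by over 2-fold between the overexpression libraries, 50 of them lower in library 2, whereas 5 differed by that much between the controls. The median absolute log2 difference was 0.17 between the overexpression libraries and 0.082 between the controls. Many results are therefore given for both libraries. A rise, fall or median given as 1 value comes from the fit over both libraries and does not show the gap between them. Where leaving out 1 library ended the call of a gene given with its values or moved its log2 fold change by over 1.5 times, that is stated beside it, and the same holds for counts of a gene group that moved by over 1.5 times. A fit without 1 RKO library leaves 1 library in that group, so its adjusted p values and calls take no spread from that group. They show how far a result depends on a library and are no test of that group.

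Of 14157 genes tested, 1959 rose and 1948 fell with CYP1B1 overexpression at an adjusted p under 0.05 (edgeR's quasi-likelihood test, adjusted by Benjamini-Hochberg here and for every adjusted p below). These are 13.8% and 13.8% of all genes, and 27.6% together, against which the counts of each gene group below should be read. The groups' libraries did not overlap for 58.8% of genes, 28.8% with both overexpression libraries above both controls and 30.0% with both below. The number called was 2254 without control 1 and 1784 without control 2. Fewer cells expressing a gene and less RNA per cell cannot be told apart in these bulk libraries.

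Chaperone genes led the rise, and a cell polarity gene, an actin bundler and a membrane protease rose with them. Genes were ranked by the smaller of their changes in the 2 overexpression libraries. Only called genes without overlap between the groups, and with a mean of at least 5 CPM in the higher group, were ranked. That their libraries do not overlap therefore follows from the choice. HSPA1B, which encodes stress-induced HSP70, stood at 20.7 and 21.6 CPM in the controls and 91.7 and 232 CPM with overexpression. HSPA1A, its near-identical neighbour, stood at 1.12 and 1.11 CPM in the controls and 3.47 and 8.64 CPM with overexpression, so how reads divide between the pair is uncertain. DNAJA1, an HSP40 partner of HSP70, stood at 142 and 139.7 CPM in the controls and 334 and 551 CPM with overexpression. In all 3 genes library 2 was higher than library 1. MMP15, a membrane-anchored metalloproteinase, stood at 6.48 and 7.63 CPM in the controls and 18.7 and 18.8 CPM with overexpression (log2 fold change 1.41, SE 0.12, adjusted p = 5.10e-05). SCRIB, a scaffold of basolateral polarity, stood at 124 and 121 CPM in the controls and 267 and 320.2 CPM with overexpression (log2 fold change 1.26, SE 0.086, adjusted p = 2.08e-05). STMN3, a stathmin that binds tubulin, stood at 18.9 and 19.9 CPM in the controls and 43.7 and 47.1 CPM with overexpression (log2 fold change 1.23, SE 0.079, adjusted p = 1.51e-05). For these 3 genes the overexpression libraries lay close together and well above the controls. Smaller or less even rises followed. FSCN1, which bundles actin in filopodia, rose by 1.36, KREMEN2, a receptor for the Wnt inhibitors of the Dickkopf family, by 1.16, and LRRC26, an auxiliary subunit of a potassium channel, by 1.21 on the log2 scale. ZNF672, a zinc finger gene, stood at 127 and 118 CPM in the controls and 281 and 466 CPM with overexpression. KRT13, a keratin of stratified epithelium, had 159 and 51 counts in the controls, which differed among themselves, and 252 and 681 with overexpression (log2 fold change 2.11, SE 0.49, adjusted p = 0.00843). Its log2 fold change was 3.21 without control 1, 1.48 without control 2 (adjusted p = 0.0913) and 1.18 without overexpression library 2. IFIT1, an interferon-induced RNA-binding gene, rose by 1.19, a call lost without either control (adjusted p = 0.141 and 0.0719).

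The falling genes included transcriptional regulators, a splicing factor and a schlafen gene. ESRP1, which directs epithelial splicing, had 246 and 250 counts in the controls and 16 and 1 with overexpression, a log2 difference of -3.98 in library 1, with too few counts in library 2 for a firm fold. BEST1, a chloride channel, had 391 and 382 counts in the controls and 70 and 10 with overexpression, a log2 difference of -2.53 in library 1 and -5.22 in library 2 (log2 fold change -3.32, or -5.27 without library 1). Both genes were lower in library 2 than in library 1, at 0.459 and 0.0299 CPM and 2.01 and 0.299 CPM. AKNA, which encodes a DNA-binding and centrosomal protein, stood at 165 and 176 CPM in the controls and 53.1 and 37.4 CPM with overexpression (log2 fold change -1.91, SE 0.13, adjusted p = 2.35e-05). CREB5, a leucine zipper factor, stood at 141 and 141 CPM in the controls and 44.5 and 30.5 CPM with overexpression (log2 fold change -1.91, SE 0.16, adjusted p = 5.10e-05). SLFN5, a schlafen family gene, stood at 75.7 and 76.1 CPM in the controls and 25.04 and 12.8 CPM with overexpression (log2 fold change -2.001, SE 0.22, adjusted p = 0.000141). All 3 genes lay far below the controls in both libraries, and lower in library 2. PTPDC1, a phosphatase gene linked to cilia, fell by 1.78 and ANKRD31, a meiotic recombination gene with 212 and 209 counts in the controls, by 1.93 on the log2 scale. The uncharacterised LOC101928841 fell by 1.72, a call lost without control 1 (adjusted p = 0.0761) or control 2 (adjusted p = 0.0769). NPIPB2 and NOMO3 have near-identical copies, and CD99-2 is an entry of the cell surface gene CD99, which lies on both sex chromosomes, so their counts are uncertain. All 3 fell in the fit, but not with every library left out. CD99-2 stood at 4.95 and 36.97 CPM in the controls and 1.58 and 1.11 CPM with overexpression, with controls far apart, and its log2 fold change was -3.96, or -1.88 without control 2 (adjusted p = 0.298). NPIPB2 stood at 4.83 and 5.79 CPM in the controls and 1.63 and 0.867 CPM with overexpression and lost its call without control 2 (adjusted p = 0.0695). NOMO3 stood at 1.901 and 14.7 CPM in the controls and 1.61 and 1.43 CPM with overexpression, so that its fall rested on control 2, without which its log2 fold change was -0.32 (adjusted p = 0.439).

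**Figure D1:**
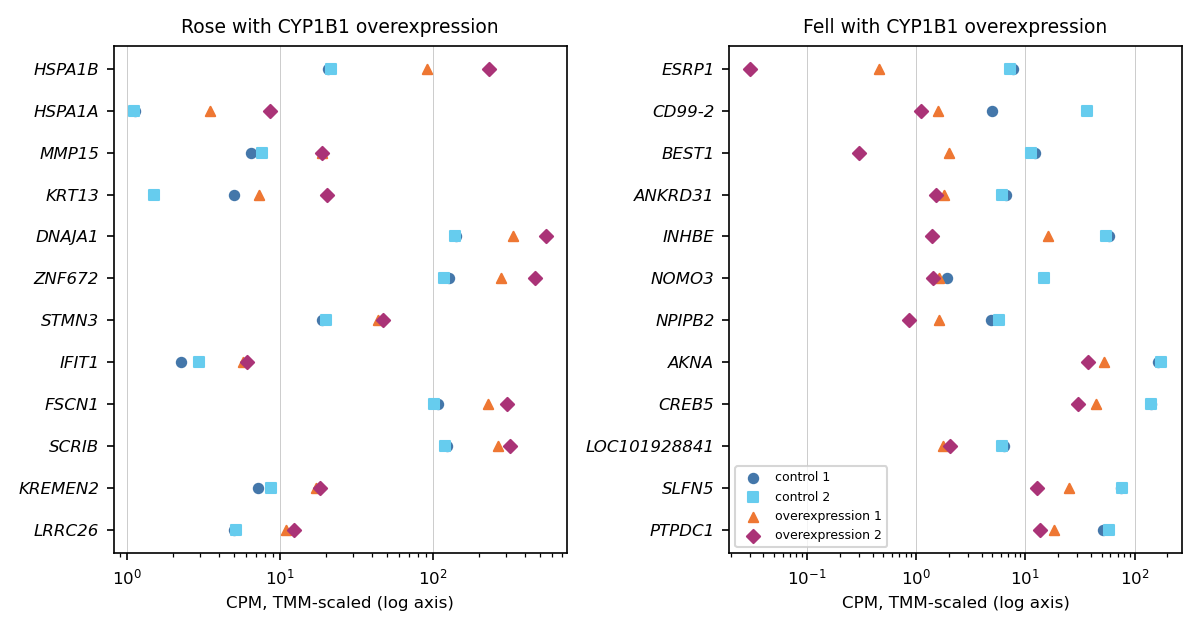
CPM of the genes that rose (left) or fell (right) most in both overexpression libraries, on a log axis, with 1 symbol per library. Genes were chosen so that the 2 overexpression libraries sit beyond the 2 controls, from HSPA1B to LRRC26 and from ESRP1 to PTPDC1. NOMO3 and CD99-2 have the widest gaps between controls on the right, and KRT13 on the left.

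Cytosolic chaperone genes held more risen than fallen members. Of 53 tested members, 26 rose, 5 (HSPBAP1, DNAJB14, HSF2, TTC4 and BAG4) fell and 22 were not called, beside 13.8% risen and 13.8% fallen over all genes. Their median log2 fold change was 0.28 (0.23 in library 1 and 0.39 in library 2), beside a median of 0 over all genes tested. With a trend with gene length removed, as described at the end, 26 rose. Of the chaperones, 23 rose and 2 fell without control 1, 23 and 1 without control 2, 26 and 2 without library 2, and 25 and 2 to 3 with 1 of the SW480 libraries left out. HSPA8, the constitutive HSP70, stood at 1061 and 925 CPM in the controls and 1927 and 3062 CPM with overexpression (log2 fold change 1.33, SE 0.16, adjusted p = 0.000241). HSP90AA1, the inducible HSP90, stood at 2176 and 2019 CPM in the controls and 3075 and 3914 CPM with overexpression (log2 fold change 0.74, SE 0.092, adjusted p = 0.000311). DNAJB1, the HSP40 that works with HSP70 in disaggregation, stood at 91.95 and 88.1 CPM in the controls and 171 and 278 CPM with overexpression (log2 fold change 1.32, SE 0.16, adjusted p = 0.000311). In each of these genes library 2 was the highest and library 1 lay between it and the controls. Among HSP70 exchange factors BAG3, which links HSP70 to selective autophagy, rose by 0.93 (SE 0.13), BAG1 by 1.11 (SE 0.17) and HSPH1 by 0.94 (SE 0.15), the last by 0.62 without overexpression library 2, whereas of the other BAG genes listed BAG4 fell and BAG2, BAG5 and BAG6 were not called. The HSP90 co-chaperones PTGES3, known as p23, and UNC45A, a myosin chaperone, rose by 0.63 and 0.61. HSPBAP1, which binds the small heat shock protein HSPB1, went the other way, from 37.8 and 39.4 CPM to 21.2 and 15.6 CPM (log2 fold change -1.07, SE 0.14, adjusted p = 0.000452). HSF1 itself stood at 167 and 171 CPM in the controls and 179 and 161 CPM with overexpression and was not called (adjusted p = 0.972).

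Promoters of all gene lists were searched for the heat shock element, the CCAAT/ATF composite element, the xenobiotic response element and an E2F site. The heat shock element, the repeated run that HSF1 is known to bind, is described for the chaperone genes because these led the rise. It was searched as GAA, TTC and GAA with any 2 bases between neighbouring runs, on both strands (TTC, GAA and TTC on the other), and overlapping matches were each counted. The window was the 300 bases from 250 before to 50 after each RefSeq start site (GRCh38.p14). The table matched 13463 of the 16829 genes, and 48 of these promoters (0.357%) held a match. Of 47 chaperone promoters 5 (10.6%) did: CHORDC1, DNAJA1 and HSPA8 among 24 risen genes, and DNAJB6 and HSPA6 among 19 that were not called. Capitals mark the match, read 5′ to 3′ on the gene's strand.
DNAJA1, chr9:33025268-33025296, plus strand: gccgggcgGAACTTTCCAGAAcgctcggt
HSPA8 distal, chr11:123062346-123062374, minus strand: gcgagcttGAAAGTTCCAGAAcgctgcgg
HSPA8 proximal, chr11:123062171-123062199, minus strand: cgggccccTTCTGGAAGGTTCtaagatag
CHORDC1, chr11:90223084-90223112, minus strand: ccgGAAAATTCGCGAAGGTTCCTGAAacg
HSPA6, chr1:161524458-161524486, plus strand: cggaaaggTTCGCGAAAGTTCgcggcggc
The CHORDC1 window holds 3 overlapping matches. The HSPA8 stretch before its start site is printed whole, since it held matches at positions -230 and -55 from the start site.
HSPA8, chr11:123062137-123062386, minus strand: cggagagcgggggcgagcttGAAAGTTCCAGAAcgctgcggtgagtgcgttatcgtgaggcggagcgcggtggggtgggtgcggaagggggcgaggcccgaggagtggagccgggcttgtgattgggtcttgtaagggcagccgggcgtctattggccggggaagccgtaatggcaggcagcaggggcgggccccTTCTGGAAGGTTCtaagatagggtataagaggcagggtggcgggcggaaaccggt
CHORDC1, an HSP90 co-chaperone gene, rose by only 0.26, a call lost when control 1 (adjusted p = 0.135), control 2 (adjusted p = 0.230) or overexpression library 2 (adjusted p = 0.141) was left out. A match describes letters and is neither a binding site nor a cause, and a promoter without one says nothing about the factor.

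**Figure D2:**
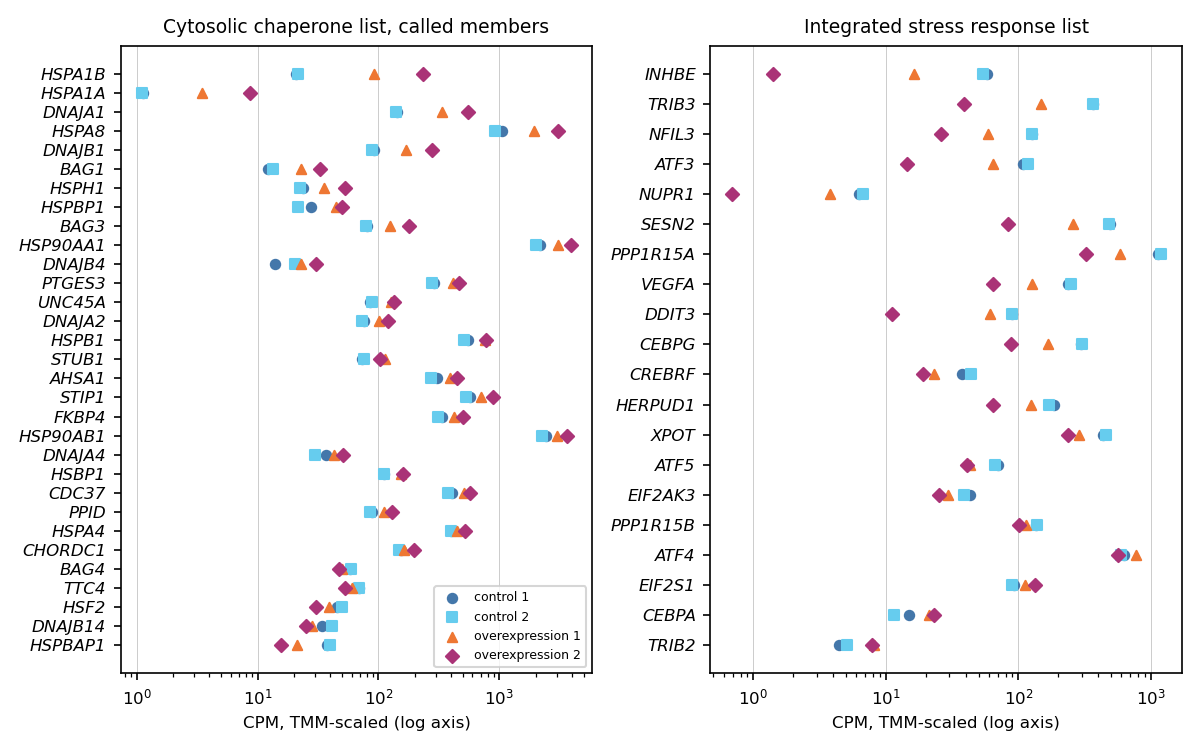
CPM of the called members of the cytosolic chaperone list (left) and of the called members and ATF4 and DDIT3 of the integrated stress response list (right), on log axes, with 1 symbol per library. FGF21, which fell but had 0 counts in library 2, is not drawn. Most risen chaperone genes have the order controls, library 1, library 2, and most fallen stress response genes have the reverse order.

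Proteasome and chaperonin genes held more risen than fallen members, and mitochondrial chaperones were mixed. Of 36 proteasome subunit genes 21 rose and 2 (PSMD12 and PSMD14) fell, with a median of 0.30 (0.26 and 0.32 in libraries 1 and 2). PSMD3, a lid subunit, stood at 136 and 133 CPM in the controls and 202 and 254 CPM with overexpression (log2 fold change 0.76, SE 0.094, adjusted p = 0.000305). SEM1, the smallest lid subunit, stood at 80.2 and 82.6 CPM in the controls and 127 and 123 CPM with overexpression (log2 fold change 0.62, SE 0.067, adjusted p = 0.000139). PSMB3 and PSMA1 of the core particle rose by 0.57 and 0.42, with both libraries alike. Of the proteasome genes, 18 rose and 0 fell without control 1, 10 and 0 without control 2, 21 and 0 to 1 with 1 of the SW480 libraries left out, and 13 and 5 with the length trend removed. Of 23 genes of the chaperonin TRiC, which folds actin and tubulin, and of prefoldin, 11 rose and 2 (PFDN2 and RPAP3) fell. CCT2 stood at 444 and 427 CPM in the controls and 558 and 629 CPM with overexpression and TCP1 at 262 and 242 CPM in the controls and 325 and 358 CPM with overexpression, and CCT3 and RUVBL2 rose by 0.43 and 0.45. Of the chaperonin genes, 8 rose and 1 fell without control 1, 6 and 0 without control 2, and 6 and 2 with the length trend removed. Of 46 genes for mitochondrial chaperones, proteases and import, 15 rose and 4 (HSPA9, GRPEL2, YME1L1 and TIMM44) fell. Of the mitochondrial chaperone list, 9 rose and 3 fell without control 1, 8 and 1 without control 2, 18 and 12 without library 1, and 9 and 9 with the length trend removed. PMPCA, which cleaves import signals, rose by 0.54, and HSPE1, the small chaperonin, by 1.501. HSPA9, the mitochondrial HSP70, fell from 1606 and 1648 CPM to 1188 and 1084 CPM (log2 fold change -0.52, SE 0.062, adjusted p = 0.000262). HSPD1, the large chaperonin that shares a promoter region with HSPE1, stood at 1562 and 1537 CPM in the controls and 1704 and 1742 CPM with overexpression and was not called (adjusted p = 0.0556). Its log2 difference from the control mean was 0.14 in library 1 and 0.17 in library 2.

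Integrated stress response genes held more fallen than risen members. Of 35 tested members 16 fell and 3 (TRIB2, EIF2S1 and CEBPA) rose, and the median log2 fold change was -0.70 (-0.47 in library 1 and -0.96 in library 2). With the length trend removed 17 fell. Of the stress response genes, 2 rose and 10 fell without control 2, 5 and 22 without library 1, and 5 and 17 without library 2. The pathway's central factor is controlled mainly at translation, and its transcripts were not called: ATF4 stood at 624 and 592 CPM in the controls and 776 and 562 CPM with overexpression (log2 fold change 0.14, adjusted p = 0.417), with library 1 above and library 2 below the controls. Without library 2 its log2 fold change was 0.35. PPP1R15A, which directs dephosphorylation of eIF2, stood at 1139.9 and 1183 CPM in the controls and 586 and 323 CPM with overexpression (log2 fold change -1.35, SE 0.19, adjusted p = 0.000611). NFIL3, a leucine zipper repressor, stood at 126 and 127 CPM in the controls and 59.4 and 26.04 CPM with overexpression (log2 fold change -1.57, SE 0.26, adjusted p = 0.00128). CEBPG, a partner of ATF4, stood at 296 and 301 CPM in the controls and 166 and 87.5 CPM with overexpression (log2 fold change -1.23, SE 0.20, adjusted p = 0.00134). In these genes library 2 fell further than library 1, and both lay under the controls. The same order held for TRIB3, a pseudokinase that restrains ATF4, at 364 and 363 CPM in the controls and 149 and 38.8 CPM with overexpression, with log2 fold changes of -1.28 without library 2 and -3.23 without library 1. SESN2, which reports leucine to the kinase complex mTORC1, stood at 494 and 479.6 CPM in the controls and 256 and 83.97 CPM with overexpression, and lost its call without control 2 (adjusted p = 0.0520). Without library 2 its log2 fold change was -0.93, and -2.53 without library 1. ATF5, a leucine zipper factor, and CREBRF, a regulator of CREB3, fell with both libraries alike, by 0.70 and 0.96. VEGFA, an angiogenic ligand that ATF4 is known to induce, stood at 237 and 249 CPM in the controls and 128 and 64.5 CPM with overexpression (log2 fold change -1.34, SE 0.22, adjusted p = 0.00118). XPOT, the tRNA exporter, fell by 0.77 (SE 0.088).

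Most genes that charge tRNA with amino acids in the cytosol fell. Of 24 cytosolic tRNA ligase genes, 15 fell and 3 rose, with a median of -0.45 (-0.35 in library 1 and -0.54 in library 2). Of the cytosolic ligases, 0 rose and 15 fell without control 1, 0 and 12 without control 2, 1 and 15 with 1 of the SW480 libraries left out, and 0 and 14 with the length trend removed. WARS1, the tryptophan enzyme, stood at 418 and 424 CPM in the controls and 220.4 and 172 CPM with overexpression (log2 fold change -1.10, SE 0.098, adjusted p = 6.66e-05). AARS1, for alanine, stood at 926 and 925 CPM in the controls and 595 and 426 CPM with overexpression (log2 fold change -0.86, SE 0.12, adjusted p = 0.000491). GARS1, for glycine, stood at 989 and 952 CPM in the controls and 654 and 444 CPM with overexpression (log2 fold change -0.82, SE 0.13, adjusted p = 0.00115). Each stepped down from controls to library 1 to library 2 without overlap. IARS1 and LARS1, for isoleucine and leucine, fell by 0.51 and 0.45. The genes that rose were those for arginine, histidine and glutamine: RARS1, HARS1 and QARS1 by 0.23, 0.21 and 0.21. None of these 3 calls held without control 1 (adjusted p from 0.0565 to 0.143) or control 2 (adjusted p from 0.106 to 0.335). Mitochondrial tRNA ligases, most of them encoded by separate genes, gave a different count: of 17, 4 rose and none fell, with a median of 0.080. Of the mitochondrial ligases, 0 rose and 0 fell without control 1, 0 and 0 without control 2, 4 and 1 without library 1, and 2 and 0 with 1 of the SW480 libraries left out. The 4 that rose were AARS2, EARS2, LARS2 and CARS2, by 0.47, 0.40, 0.24 and 0.23. None of them passed the test without control 1 (adjusted p from 0.0556 to 0.0947) or control 2 (adjusted p from 0.0952 to 0.249), and EARS2, whose log2 fold change was then 0.19, and LARS2 did not without library 2 (adjusted p = 0.0721 and 0.0877).

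Amino acid carriers, too, held more fallen than risen members. Of 29 amino acid transporter genes 12 fell and 2 rose, with a median of -0.20 (-0.31 in library 1 and -0.11 in library 2). The 2 that rose were SLC6A6 and SLC43A2. Of the transporters, 0 rose and 9 fell without control 1, 0 and 11 without control 2, 7 and 11 without library 1, 1 and 14 without library 2, and 5 and 12 with the length trend removed. SLC7A1, a carrier of arginine and lysine, stood at 713 and 695 CPM in the controls and 367 and 361 CPM with overexpression (log2 fold change -0.95, SE 0.060, adjusted p = 1.51e-05). SLC38A1, a carrier of glutamine and alanine, stood at 1155 and 1210.3 CPM in the controls and 692 and 687 CPM with overexpression (log2 fold change -0.78, SE 0.064, adjusted p = 5.10e-05). These 2 genes fell by nearly the same amount in both overexpression libraries. SLC7A11, the cystine and glutamate exchanger, stood at 203 and 222 CPM in the controls and 88.3 and 54.3 CPM with overexpression (log2 fold change -1.57, SE 0.20, adjusted p = 0.000311). Its partner chain SLC3A2 stood at 423 and 437 CPM in the controls and 286 and 189 CPM with overexpression, and SLC7A5, the leucine carrier that shares this chain, at 1065 and 1036 CPM in the controls and 716 and 639.9 CPM with overexpression. Both lay lower in library 2 than in library 1. SLC6A9, a glycine carrier, fell by 1.16.

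Enzymes that make serine, glycine, asparagine and one-carbon units were split, with 10 of 32 fallen and 6 risen. Of the enzymes of this list, 3 rose and 6 fell without control 1, and 2 and 4 without control 2. GOT1, the cytosolic aspartate transaminase, stood at 192 and 188 CPM in the controls and 98.4 and 73.6 CPM with overexpression (log2 fold change -1.14, SE 0.11, adjusted p = 9.36e-05). ASNS, which makes asparagine from aspartate, stood at 926 and 950.0 CPM in the controls and 604 and 213 CPM with overexpression (log2 fold change -1.20, SE 0.32, adjusted p = 0.0159). It lost its call without control 1 (adjusted p = 0.0781) or control 2 (adjusted p = 0.0971), and its log2 fold change was -0.64 without library 2 and -2.14 without library 1. CTH, which makes cysteine from cystathionine, stood at 273 and 265 CPM in the controls and 127 and 46.8 CPM with overexpression, a log2 fold change of -1.08 without library 2 and -2.52 without library 1. In ASNS and CTH both overexpression libraries lay below the controls, and library 2 far below library 1. MTHFD2, a mitochondrial folate enzyme, had a log2 fold change of -0.73, or -0.48 without library 2. PHGDH, the entry enzyme of serine synthesis, stood at 259 and 249 CPM in the controls and 273 and 178 CPM with overexpression. It was not called, with library 1 above the controls and library 2 below (log2 fold change -0.51 without library 1).

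The start sites of these genes were searched for the CCAAT/ATF composite element that ATF4 dimers are known to bind, as TGATGNAAN on both strands in the same 300 bases. Over all matched promoters 280 (2.08%) held it. Among tRNA ligases it stood in 6 of 12 promoters of fallen genes (50.0%), in none of 3 of risen genes and in none of 4 of genes not called. Among transporters it stood in 4 of 10 promoters of fallen genes (40.0%), in 0 of 1 of risen genes and in 0 of 13 of genes not called. Among integrated stress response genes it stood in 4 of 13 promoters of fallen genes (30.8%), in 0 of 3 of risen genes and in 1 of 14 of genes not called. The serine and asparagine enzymes, not split by call, held it in 3 of 22 (13.6%). The windows of the 6 ligase genes, of 2 carriers and of 2 enzymes are shown because these genes all fell, with capitals for the match, which reads GTTGCATCA or a near form where it lies on the other strand.
AARS1, chr16:70289676-70289704, minus strand: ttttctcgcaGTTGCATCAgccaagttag
CARS1, chr11:3057408-3057436, minus strand: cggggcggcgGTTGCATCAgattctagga
IARS1, chr9:92293693-92293721, minus strand: ttttcagcgcGTTGCATCAcctccgtgcg
MARS1, chr12:57488053-57488081, plus strand: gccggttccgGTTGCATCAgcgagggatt
NARS1, chr18:57621804-57621832, minus strand: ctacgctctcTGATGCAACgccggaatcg
TARS1, chr5:33440956-33440984, plus strand: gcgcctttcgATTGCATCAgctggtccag
SLC7A1, chr13:29595663-29595691, minus strand: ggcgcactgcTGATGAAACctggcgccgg
SLC38A1, chr12:46266502-46266530, minus strand: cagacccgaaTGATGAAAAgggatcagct
GOT1, chr10:99430805-99430833, minus strand: aattgcattgGTTGCATCAttctcggcag
ASNS, chr7:97872409-97872658, minus strand: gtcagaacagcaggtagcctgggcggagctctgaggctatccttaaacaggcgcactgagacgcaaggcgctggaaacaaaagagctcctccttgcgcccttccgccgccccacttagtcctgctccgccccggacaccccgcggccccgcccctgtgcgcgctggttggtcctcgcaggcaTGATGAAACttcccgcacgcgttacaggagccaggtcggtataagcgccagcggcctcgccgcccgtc
The ASNS stretch is printed whole because its match is known as part of a nutrient-sensing response element. Of the ligase genes shown, CARS1, MARS1, NARS1 and TARS1, for cysteine, methionine, asparagine and threonine, fell by 0.71, 0.52, 0.60 and 0.44. CARS1 lost its call without control 2 (adjusted p = 0.0558) and stood at a log2 fold change of -0.41 without library 2 and -1.08 without library 1. Over all matched promoters 916 (6.8%) held the xenobiotic response element (TNGCGTG) and 314 (2.33%) the E2F site (TTTCCCGC). By list, the xenobiotic response element ranged from 0% to 28.6% (4 of 14 promoters of mitochondrial tRNA ligases). The E2F site ranged from 0% to 11.1% (2 of 18 promoters of nucleic acid sensing genes). Chaperone promoters held them in 3 (6.38%) and 1 (2.13%) of 47. These matches too are descriptions of sequence.

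**Figure D3:**
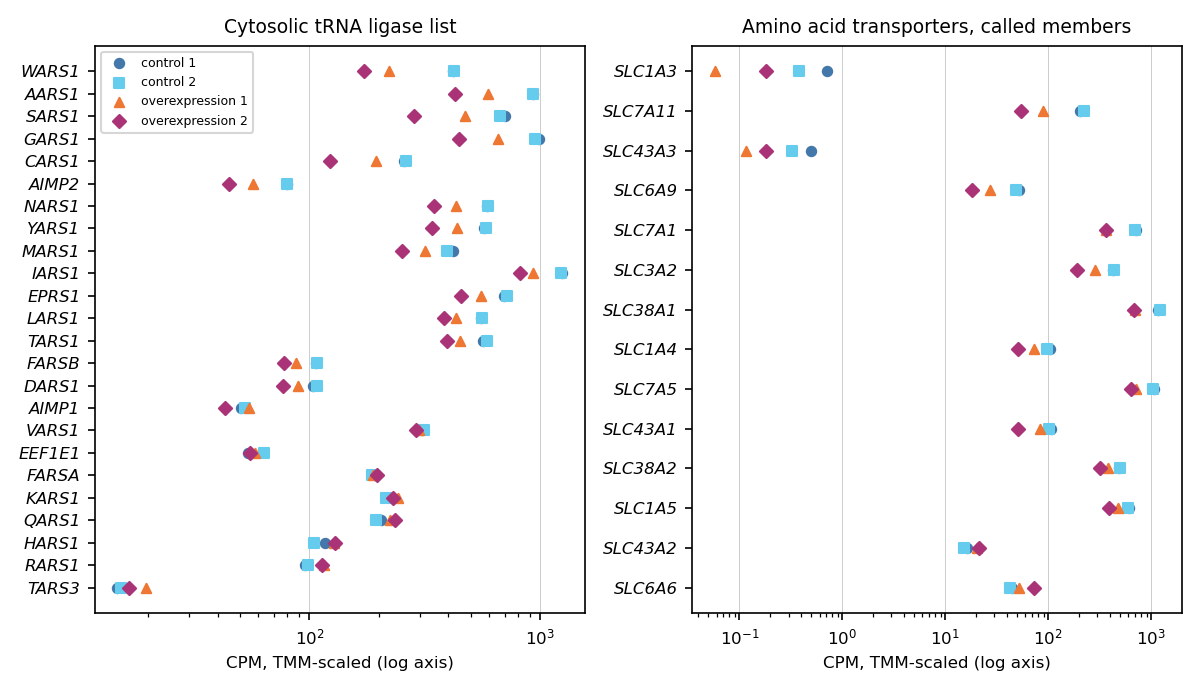
CPM of all 24 cytosolic tRNA ligase genes (left) and the 14 called amino acid transporter genes (right), on log axes, with 1 symbol per library. Fallen ligase genes step down from the controls to library 1 to library 2, whereas SLC7A1 and SLC38A1 have their 2 overexpression symbols on top of each other. SLC1A3 and SLC43A3 stand under 1 CPM in every library.

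Among genes that serve a P450 enzyme directly, the called members all rose. Of 36 genes for P450 partners and for handling quinones and catechols, 8 rose and none fell, and the median was 0.11 (0.15 in library 1 and 0.022 in library 2). The 22.2% called, all of them risen, stood beside 27.6% called and 13.8% risen over all genes. Of the P450 partners, 6 rose and 1 fell without control 1, 3 and 0 without control 2, 9 and 6 without library 1, 10 and 1 without library 2, 7 and 0 to 1 with 1 of the SW480 libraries left out, and 5 and 2 with the length trend removed. POR, the electron donor of CYP1B1, stood at 68.5 and 67.5 CPM in the controls and 75.6 and 85.8 CPM with overexpression, a rise of 0.25 that was lost without control 1 (adjusted p = 0.133), control 2 (adjusted p = 0.176) or library 2 (adjusted p = 0.0812). CBR1, a carbonyl reductase, stood at 77.7 and 79.8 CPM in the controls and 116 and 120.3 CPM with overexpression (log2 fold change 0.59, SE 0.070, adjusted p = 0.000245). FDXR, the mitochondrial electron donor of steroid-making P450 enzymes, stood at 34.5 and 35.9 CPM in the controls and 61.4 and 53.00 CPM with overexpression (log2 fold change 0.70, SE 0.10, adjusted p = 0.000617).

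Heme, retinoid and steroid genes rose in part. Of 23 heme genes 6 rose and none fell (median 0.17). Of the heme genes, 7 rose and 2 fell without library 1, and 6 and 1 with the length trend removed. CPOX and UROD of heme synthesis rose by 0.55 and 0.38 and BLVRA, which reduces biliverdin, by 0.51. The first and last steps, ALAS1 and FECH, were not called, at 189 and 171 CPM in the controls and 195 and 182 CPM with overexpression and at 51.2 and 49.2 CPM in the controls and 48.2 and 42.5 CPM with overexpression. Among 23 other cytochrome P450 genes none rose and 2 fell. Of the other P450 genes, 0 rose and 1 fell without control 1, 1 and 1 without control 2, 1 and 4 without library 1, and 1 and 2 without library 2. CYP1A1, of the same CYP1 family, had 64 and 58 counts in the controls and 20 and 27 with overexpression (log2 fold change -1.41, SE 0.30, adjusted p = 0.00512), and CYP20A1 fell by 0.95, a call lost without control 1 (adjusted p = 0.0528) or control 2 (adjusted p = 0.123). Of 33 genes for steroid hormones and retinoids 9 rose and 2 (RDH11 and SRD5A3) fell. The retinoid receptors RXRA and RARG rose by 0.61 and 0.51 and the mitochondrial dehydrogenase HSD17B10 by 0.44. Of the steroid and retinoid genes, 6 rose and 0 fell without control 1, 5 and 2 without control 2, and 11 and 4 without library 1.

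Glutathione and thioredoxin genes held more risen than fallen members. Of 35 glutathione and thioredoxin genes 13 rose and 2 (TXNRD1 and TXNIP) fell (median 0.18). Of the redox genes, 8 rose and 1 fell without control 1, 5 and 1 without control 2, 13 and 5 without library 1, and 5 and 2 with the length trend removed. PRDX1, a peroxiredoxin, stood at 382 and 363 CPM in the controls and 635 and 712 CPM with overexpression (log2 fold change 0.85, SE 0.071, adjusted p = 5.10e-05). SOD1, the cytosolic superoxide dismutase, stood at 286 and 249 CPM in the controls and 385 and 386 CPM with overexpression (log2 fold change 0.53, SE 0.076, adjusted p = 0.000629). TXNIP, the thioredoxin inhibitor, stood at 779 and 768 CPM in the controls and 471 and 144 CPM with overexpression, a log2 fold change of -0.72 without library 2 and -2.42 without library 1. Its call was lost without control 1 (adjusted p = 0.0869) or control 2 (adjusted p = 0.0937). TXNRD1, thioredoxin reductase, fell by 0.35.

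Glycolysis genes held more risen than fallen members, and other metabolic lists were mixed. Of 24 glycolysis genes 10 rose and 3, the glucose carriers SLC2A1 and SLC2A3 and the kinase HK2, fell (median 0.23). Of the glycolysis genes, 9 rose and 0 fell without control 1, 5 and 1 without control 2, and 10 and 1 to 2 with 1 of the SW480 libraries left out. PKM, pyruvate kinase, stood at 1579.6 and 1407 CPM in the controls and 2465 and 3037 CPM with overexpression (log2 fold change 0.88, SE 0.090, adjusted p = 0.000113). PGAM1, a mutase, and SLC16A3, a lactate exporter, rose by 0.66 and 0.63. Of 37 genes for purines and pyrimidines 10 rose and 3 (GART, PPAT and PRPSAP2) fell. DCTPP1, which cleans the nucleotide pool, rose by 0.85 and IMPDH1, for guanine nucleotides, by 0.64, while GART, for the purine ring, fell from 374 and 350.2 CPM to 269.7 and 244 CPM (log2 fold change -0.495, SE 0.072, adjusted p = 0.000641). Of the nucleotide genes, 8 rose and 1 fell without control 1, 6 and 1 without control 2, 11 and 1 without library 2, 9 to 10 and 1 with 1 of the SW480 libraries left out, and 9 and 5 with the length trend removed. In the citrate cycle 6 of 38 rose and 2 (PDP1 and IDH1) fell. Of the citrate cycle genes, 4 rose and 1 fell without control 1, 3 and 1 without control 2, 12 and 6 without library 1, 10 and 1 without library 2, and 5 and 1 with 1 of the SW480 libraries left out. The rises of SDHD and MDH1 were 0.57 and 0.47. Of 24 polyamine genes 7 rose and 4 (ATP13A3, SAT1, ARG2 and AZIN1) fell. Of the polyamine genes, 4 rose and 1 fell without control 1, 4 and 0 without control 2, 5 to 6 and 2 with 1 of the SW480 libraries left out, and 4 and 4 with the length trend removed. ATP13A2, a lysosomal polyamine exporter, and EIF5A, the hypusine carrier, rose by 0.65 and 0.46. ODC1, the entry enzyme, stood at 346 and 335 CPM in the controls and 354 and 377 CPM with overexpression and was not called (adjusted p = 0.296). Mitochondrial ribosomal protein genes rose in 31 of 77 and fell in 2 (MRPS18B and MRPS31). Of the mitochondrial ribosomal genes, 21 rose and 0 fell without control 1, 15 and 0 without control 2, 30 and 8 without library 1, 40 and 1 without library 2, and 14 and 6 with the length trend removed. MRPL14 stood at 32.6 and 35.3 CPM in the controls and 54.1 and 54.02 CPM with overexpression (log2 fold change 0.67, SE 0.092, adjusted p = 0.000502).

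Among signalling genes, targets of YAP and cytokine genes held more fallen than risen members. Of 38 targets and regulators of YAP and TEAD 15 fell and 2 (FJX1 and MOB1A) rose, with a median of -0.27. Of the YAP and TEAD genes, 1 rose and 8 fell without control 1, 2 and 9 without control 2, and 4 and 19 without library 1. CCN1, a secreted matrix signal, stood at 447 and 419 CPM in the controls and 269 and 159 CPM with overexpression (log2 fold change -1.01, SE 0.17, adjusted p = 0.00162). CCN2, its relative, stood at 41.1 and 47.8 CPM in the controls and 25.3 and 14.2 CPM with overexpression (log2 fold change -1.17, SE 0.21, adjusted p = 0.00201). ASAP1, an Arf regulator, fell by 0.61, and AMOTL2, an angiomotin, by 0.69. YAP1 itself stood at 137 and 142 CPM in the controls and 112 and 117 CPM with overexpression, a fall of 0.29 that was lost without control 2 (adjusted p = 0.0803). Of 48 cytokine, chemokine and receptor genes 10 fell and 2 (TNFRSF10D and TNFSF9) rose (median -0.30, with -0.13 in library 1 and -0.36 in library 2). The 25% called lay below the 27.6% of all genes. Of the cytokine genes, 1 rose and 6 fell without control 1, 1 and 6 without control 2, 2 and 16 without library 1, 5 and 9 without library 2, and 1 and 10 with the length trend removed. IL6ST, the shared receptor chain of the interleukin-6 family, stood at 125 and 131 CPM in the controls and 75.8 and 76.5 CPM with overexpression (log2 fold change -0.75, SE 0.068, adjusted p = 6.80e-05). LIF, a ligand of that chain, stood at 387 and 370.2 CPM in the controls and 262 and 204 CPM with overexpression (log2 fold change -0.70, SE 0.099, adjusted p = 0.000583). TNFRSF10D, a decoy receptor for the death ligand TRAIL, rose by 0.82.

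Growth factor pathways gave mixed counts. In the TGF-beta, activin and BMP pathway 9 of 46 rose and 9 fell. Of the pathway genes, 4 rose and 6 fell without control 1, and 3 and 5 without control 2. SMAD3, which carries the TGF-beta signal to the nucleus, stood at 163 and 156 CPM in the controls and 89.1 and 92.7 CPM with overexpression (log2 fold change -0.81, SE 0.071, adjusted p = 6.15e-05). SKIL, a SMAD repressor, fell by 0.93, and LTBP3, which holds latent TGF-beta, rose by 0.60. Of 54 receptor tyrosine kinases and ligands 9 rose and 10 fell. Of the receptor and ligand genes, 8 rose and 6 fell without control 1, and 3 and 7 without control 2. MET, the hepatocyte growth factor receptor, stood at 166 and 161 CPM in the controls and 108 and 91.5 CPM with overexpression (log2 fold change -0.72, SE 0.099, adjusted p = 0.000526). FGFR3 rose by 0.82 and HBEGF, an EGF receptor ligand, fell by 0.77. ERRFI1, a feedback inhibitor of the EGF receptor, stood at 504 and 519 CPM in the controls and 256 and 75.9 CPM with overexpression, a log2 fold change of -0.998 without library 2 and -2.75 without library 1, with its call lost without control 2 (adjusted p = 0.0582).

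Genes of the actin cytoskeleton held more risen than fallen members, and junction genes were called in either direction about as often as all genes. Of 41 genes for the actin cytoskeleton and targets of SRF, 14 rose and 3 fell. Of the actin genes, 9 rose and 3 fell without control 2, 15 and 7 without library 1, 15 and 6 without library 2, and 12 and 5 with the length trend removed. PFN1, profilin, stood at 762 and 688 CPM in the controls and 1158 and 1194 CPM with overexpression (log2 fold change 0.70, SE 0.065, adjusted p = 7.50e-05). CFL1, cofilin, stood at 540.1 and 517 CPM in the controls and 779 and 829.5 CPM with overexpression (log2 fold change 0.61, SE 0.065, adjusted p = 0.000134). The monomer-binding peptide gene TMSB10 rose by 0.66, whereas SRF itself stood at 134 and 132 CPM in the controls and 123 and 119.8 CPM with overexpression and was not called (adjusted p = 0.264). Of 39 cadherin, claudin and desmosome genes 7 fell and 4 (MARVELD1, PKP1, JUP and DSC2) rose, with a median of 0.044. Of the junction genes, 0 rose and 4 fell without control 1, and 1 and 5 without control 2. TJP1, the tight junction scaffold, stood at 287 and 278 CPM in the controls and 159.7 and 194 CPM with overexpression (log2 fold change -0.68, SE 0.086, adjusted p = 0.000331). OCLN of the tight junction and DSP and DSG2 of the desmosome fell by 0.67, 0.61 and 0.43.

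Keratins rose in small number. Of 35 keratin genes 6 rose and none fell. Of the keratins, 2 rose and 1 fell without control 2, and 12 and 2 without library 1. KRT8, the simple epithelial keratin, stood at 52.04 and 45.9 CPM in the controls and 80.2 and 80.8 CPM with overexpression (log2 fold change 0.72, SE 0.069, adjusted p = 8.80e-05), while its partner KRT18 stood at 184 and 179 CPM in the controls and 176 and 189.5 CPM with overexpression and was not called (adjusted p = 0.955). KRT3 had 0 and 0 counts in the controls and 6 and 19 with overexpression, too few for a fold and not called without control 1 (adjusted p = 0.0693) or control 2 (adjusted p = 0.0826), and KRT4 had 4 and 2 in the controls and 36 and 46 with overexpression. Of 65 collagen, laminin and integrin genes 6 fell and 3 (SPARC, COL6A1 and COL3A1) rose. Of the matrix genes, 3 rose and 3 fell without control 1, 0 and 3 without control 2, 7 and 12 without library 1, 1 and 4 with 1 of the SW480 libraries left out, and 6 and 4 with the length trend removed. ITGB1 and ITGA5, chains of the fibronectin receptor, fell by 0.37 and 0.49.

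Genes of G1 progression and of cell death gave mixed counts. Of 34 G1 cyclin, kinase and inhibitor genes 9 rose and 6 fell. Of the G1 genes, 7 rose and 3 fell without control 1, and 5 and 1 without control 2. SKP2, which targets the inhibitor p27 for breakdown, stood at 40.3 and 40.7 CPM in the controls and 67.6 and 82.6 CPM with overexpression (log2 fold change 0.89, SE 0.10, adjusted p = 0.000191). E2F7, a repressor of E2F target genes, stood at 118 and 118 CPM in the controls and 54.3 and 61.5 CPM with overexpression (log2 fold change -1.03, SE 0.092, adjusted p = 6.75e-05). E2F1 and TFDP1 rose by 0.58 and 0.51, and CCND1, cyclin D1, by 0.43, or by 0.27 without library 2. Of 36 BCL2 family and caspase genes 9 rose and 10 fell. Of the apoptosis genes, 7 rose and 5 fell without control 1, 6 and 4 without control 2, and 14 and 11 without library 1. The pore formers BAK1 and BAX rose by 0.65 and 0.497, and BIRC2, an inhibitor of apoptosis, stood at 80.7 and 91.7 CPM in the controls and 54.3 and 41.8 CPM with overexpression (log2 fold change -0.84, SE 0.12, adjusted p = 0.000722). MCL1 fell by 0.20, a call lost without control 1 (adjusted p = 0.0604) or control 2 (adjusted p = 0.276).

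Repair genes and clock genes held more fallen than risen members. Of 48 homologous recombination and Fanconi genes 12 fell and 2 (FANCG and RAD54L) rose, with a median of -0.065. Of the repair genes, 1 rose and 8 fell without control 1, 1 and 4 without control 2, and 7 and 16 without library 1. BRCA2 stood at 44.2 and 45.2 CPM in the controls and 24.6 and 29.5 CPM with overexpression (log2 fold change -0.73, SE 0.12, adjusted p = 0.00146). RBBP8 and RAD50, which act in end resection, fell by 0.74 and 0.57, and FANCG of the Fanconi core rose by 0.61. Of 23 clock genes 7 fell and 3 (DBP, CSNK1D and PER1) rose, with a median of -0.0013. Of the clock genes, 2 rose and 4 fell without control 1, 5 and 8 without library 1, and 5 and 7 with the length trend removed. CLOCK stood at 53.1 and 53.2 CPM in the controls and 29.6 and 32.6 CPM with overexpression (log2 fold change -0.78, SE 0.089, adjusted p = 0.000201), and DBP, an output gene of the clock, at 13.7 and 14.96 CPM in the controls and 21.7 and 24.99 CPM with overexpression (log2 fold change 0.70, SE 0.11, adjusted p = 0.000835).

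Splicing regulators split evenly between directions. Of 95 splicing regulators 19 rose and 19 fell. Of the splicing genes, 9 rose and 11 fell without control 1, 8 and 9 without control 2, and 33 and 23 without library 1. RBM42, a spliceosome-associated protein, stood at 40.04 and 39.7 CPM in the controls and 79.2 and 90.1 CPM with overexpression (log2 fold change 1.09, SE 0.092, adjusted p = 5.10e-05). SRSF3 and SRSF7, related SR proteins, rose by 0.66 and 0.65. The ESRP1 paralog ESRP2 stood at 67.7 and 65.8 CPM in the controls and 77.4 and 86.1 CPM with overexpression, a rise of 0.29 that was lost without control 1 (adjusted p = 0.0934), control 2 (adjusted p = 0.147) or library 2 (adjusted p = 0.0606). Of 27 genes for sensing cytosolic nucleic acid 1 (APOBEC3B) rose and 3 fell. Of the sensing genes, 2 rose and 3 fell without control 1, 0 and 2 without control 2, 9 and 3 without library 1, and 3 and 3 with the length trend removed. TRIM25, the ubiquitin ligase of the RIG-I pathway, stood at 400.4 and 401 CPM in the controls and 196 and 159 CPM with overexpression (log2 fold change -1.18, SE 0.091, adjusted p = 3.89e-05). IFI16, a DNA sensor, fell by 0.47, and IRF7 by 0.70, the latter lost without control 2 (adjusted p = 0.0514).

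Zinc finger and nuclear pore genes held more fallen than risen members, lysosome genes more risen than fallen ones, and lipid genes were called in both directions. Among 443 ZNF zinc finger genes 101 fell and 25 rose, with a median of -0.24, and 76 fell with the length trend removed. Of the zinc finger genes, 11 rose and 51 fell without control 1, 12 and 37 without control 2, and 39 and 131 without library 1. ZNF217 stood at 104 and 115 CPM in the controls and 65.1 and 61.2 CPM with overexpression (log2 fold change -0.80, SE 0.079, adjusted p = 0.000101), and ZNF621 and ZNF507 fell by 0.77 and 0.75. Of 55 nuclear pore and transport genes 13 fell and 4 (NUP62, NUP93, KPNA2 and RANBP1) rose. Of the pore genes, 1 rose and 8 fell without control 1, 0 and 6 without control 2, 13 and 15 without library 1, 5 and 24 without library 2, and 3 and 7 to 8 with 1 of the SW480 libraries left out. NUP88, KPNA4 and XPO5, the exporter of microRNA precursors, fell by 0.41, 0.44 and 0.46. Of 61 lysosome genes 11 rose and 3 (NPC1, LAMP3 and ATP6V1E2) fell. The 23% called stood beside 27.6% over all genes. Of the lysosome genes, 3 rose and 2 fell without control 2, 17 and 6 without library 1, 23 and 5 without library 2, and 10 and 5 with the length trend removed. ATP6V0D1, a subunit of the proton pump, stood at 72.9 and 60.1 CPM in the controls and 110.0 and 150.2 CPM with overexpression (log2 fold change 0.97, SE 0.14, adjusted p = 0.000563), while NPC1, the cholesterol exporter, fell from 126 and 137 CPM to 85.6 and 78.6 CPM (log2 fold change -0.68, SE 0.077, adjusted p = 0.000196). Of 54 sphingolipid and phospholipid genes 14 rose and 7 fell, with a median of 0.004. Of all 54, called or not, 28 had a positive and 26 a negative log2 fold change. Of the lipid genes, 7 rose and 5 fell without control 1, and 4 and 3 without control 2. PCYT2, for phosphatidylethanolamine, rose by 0.90 and DEGS1, for ceramide, by 0.78, while UGCG, which glycosylates ceramide, fell by 0.81.

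**Figure D4:**
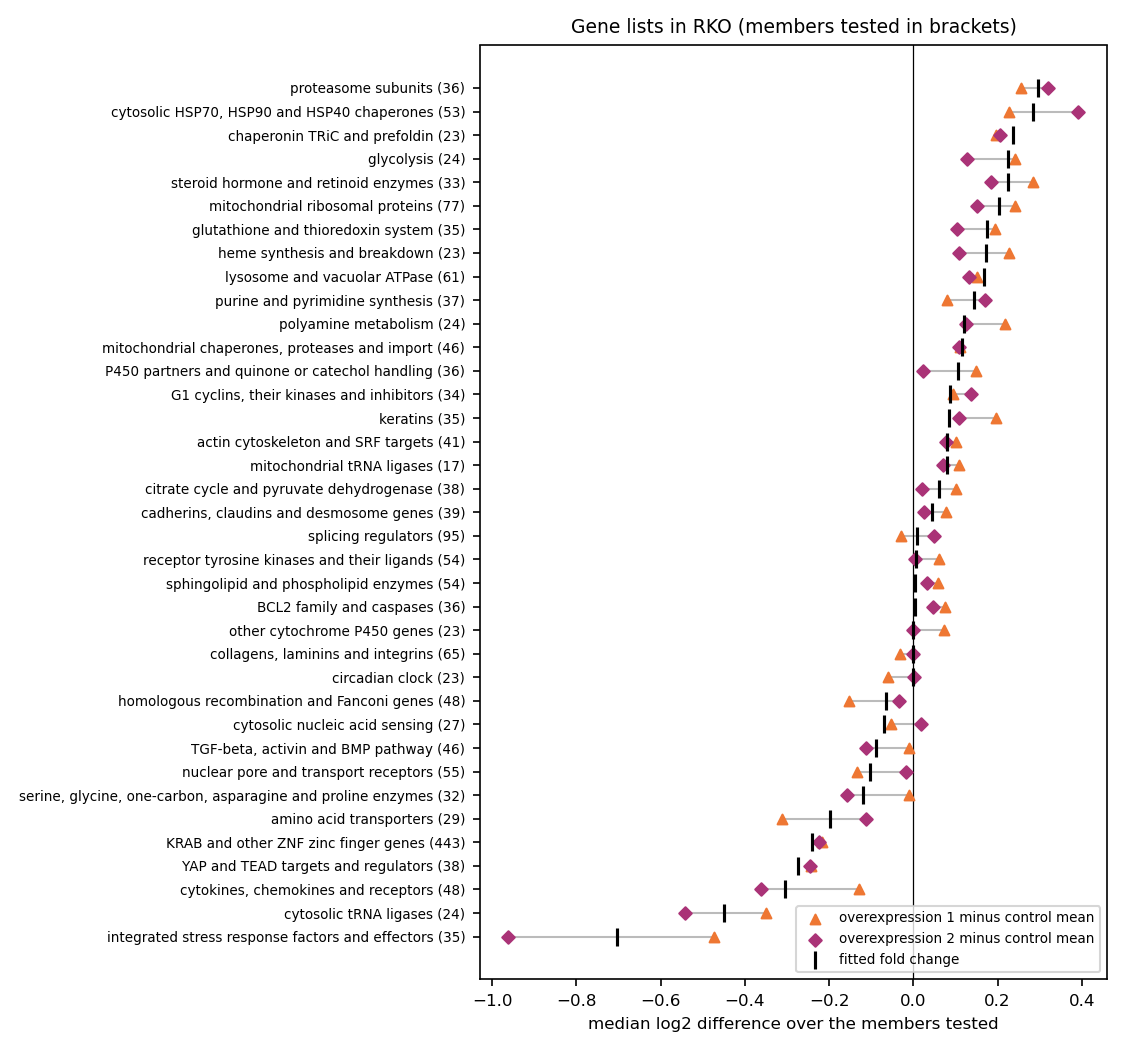
Median log2 difference of each of the 37 gene lists, with the fitted value as a bar, library 1 minus the control mean as a triangle and library 2 as a diamond. The integrated stress response list lies lowest, at -0.70, and the proteasome list highest, at 0.30. The gap between the libraries is widest for the integrated stress response list.

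The genes in which the overexpression libraries stood furthest apart were named from that gap alone, first those lower in library 2. DDIT3, the factor CHOP that promotes death under stress, stood at 90.1 and 89.4 CPM in the controls and 60.9 and 11.2 CPM with overexpression. It was not called over both libraries (log2 fold change -1.31, adjusted p = 0.0623). Its log2 fold change was -0.56 without library 2 and -3.003 without library 1. DDIT4, an inhibitor of mTORC1, stood at 211 and 191 CPM in the controls and 204 and 42.3 CPM with overexpression, so that library 1 lay among the controls and library 2 far below them. CA9, a carbonic anhydrase of hypoxia, stood at 9.29 and 6.69 CPM in the controls and 8.75 and 1.43 CPM with overexpression, with the same pattern. SPAG4, a nuclear envelope gene, stood at 7.38 and 6.34 CPM in the controls and 6.19 and 1.02 CPM with overexpression. Without library 1 the log2 fold changes of DDIT4, CA9 and SPAG4 were -2.25, -2.47 and -2.75, but none was called over both libraries. ATF3, a stress-induced repressor, stood at 109 and 119 CPM in the controls and 64.01 and 14.4 CPM with overexpression, and its call was lost without control 1 (adjusted p = 0.0880) or control 2 (adjusted p = 0.127). Its log2 fold change was -0.83 without library 2 and -2.98 without library 1. INHBE, an activin subunit gene of the stress response, stood at 58.5 and 54.4 CPM in the controls and 16.2 and 1.41 CPM with overexpression, with a log2 fold change of -5.32 without library 1. TSLP, an epithelial cytokine, stood at 29.6 and 35.3 CPM in the controls and 11.04 and 1.43 CPM with overexpression, with -1.56 without library 2, -4.496 without library 1 and its call lost without control 2 (adjusted p = 0.0698). BEST1, given above, was also lower in library 2.

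Those higher in library 2 included ankyrin repeat genes and genes with copies. ANKRD36 stood at 19.2 and 21.5 CPM in the controls and 6.51 and 17.04 CPM with overexpression, and its relatives stood apart in the same way, ANKRD36B at 10.6 and 10.9 CPM in the controls and 3.01 and 9.12 CPM with overexpression and ANKRD36C at 13.9 and 17.5 CPM in the controls and 5.56 and 14.5 CPM with overexpression. These are near-identical copies, so reads may be split among them, and all 3 were low in library 1 and near the controls in library 2. ANKRD18A followed the same pattern at 16.5 and 16.98 CPM in the controls and 6.45 and 16.5 CPM with overexpression. None of these 4 genes was called, and without library 2 their log2 fold changes ran from -1.38 for ANKRD18A to -1.83 for ANKRD36B. KRT6A, a keratin of wounded epithelium, stood at 4.27 and 2.78 CPM in the controls and 4.85 and 12.4 CPM with overexpression and was not called over both libraries. EIF3C, which has a near-identical copy, stood at 4.42 and 31.4 CPM in the controls and 7.54 and 53.8 CPM with overexpression, high in replicate 2 of both groups. MFSD14C, a transporter-like gene with relatives of close sequence, stood at 5.58 and 4.24 CPM in the controls and 3.15 and 8.85 CPM with overexpression. EIF3C and MFSD14C had positive log2 fold changes over both libraries (0.77 and 0.29, neither called) and negative ones without library 2 (-1.26 and -0.63). Without library 1 they were 1.58 and 0.85.

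A few genes went from a mean of at least 2 CPM in the controls to a mean under 0.5 CPM, ESRP1 among them. Single libraries may lie outside these limits. IL20RB, a chain of the interleukin-20 receptor, had 72 and 85 counts in the controls and 15 and 4 with overexpression (adjusted p = 0.000353). SPX, which encodes the peptide spexin, had 87 and 113 counts in the controls and 3 and 0 with overexpression. ROBO4, an endothelial guidance receptor, had 49 and 90 in the controls and 5 and 0 with overexpression. With so few counts no fold is given, but each lay far under both controls in both libraries. KCNRG, a potassium channel regulator, had 69 and 66 in the controls and 18 and 16 with overexpression, with a call lost without control 1 (adjusted p = 0.137), control 2 (adjusted p = 0.119) or library 2 (adjusted p = 0.0619). VAMP7, a vesicle fusion gene with copies on both sex chromosomes, had 282 and 21 in the controls and 13 and 18 with overexpression, so its fall rested on control 1, without which its log2 fold change was -0.43 (adjusted p = 0.811).

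The direction of change moved with gene length. Genes were split into 5 equal groups by the length that the deposited counts and FPKM imply. Among the shortest genes (227 to 2152 bp) 23.8% rose and 4.06% fell, and among the longest (6964 to 44221 bp) 5.16% rose and 23.9% fell. The median log2 fold change stepped down across the 5 groups, from 0.13 to 0.045, 0, -0.070 and -0.15. Library 1 spanned 0.20 to -0.19 and library 2 spanned 0.041 to -0.098, whereas control 2 minus control 1 spanned -0.019 to 0. Short lists such as proteasome subunits (median 1677 bp) and mitochondrial ribosomal proteins (1540 bp) share the direction of their length group, and the median of 0.30 for the proteasome stands beside 0.13 for the shortest genes. The integrated stress response list (4154 bp) falls in the middle group, whose median was 0, and tRNA ligases (2832 bp) and chaperones (2856 bp) in the second, at 0.045. The long lists of repair (5059 bp), nuclear pore (5687 bp) and YAP and TEAD genes (5583 bp) share the direction of the group after the middle one, at -0.070. Their own medians were -0.065, -0.10 and -0.27. With the trend removed the number of genes called was 3654, of which 2990 were among the 3907 called without that step. BAX, HSD17B10 and UROD were among the genes whose calls ended. The part of RNA quality in this trend was not tested.

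**Figure D5:**
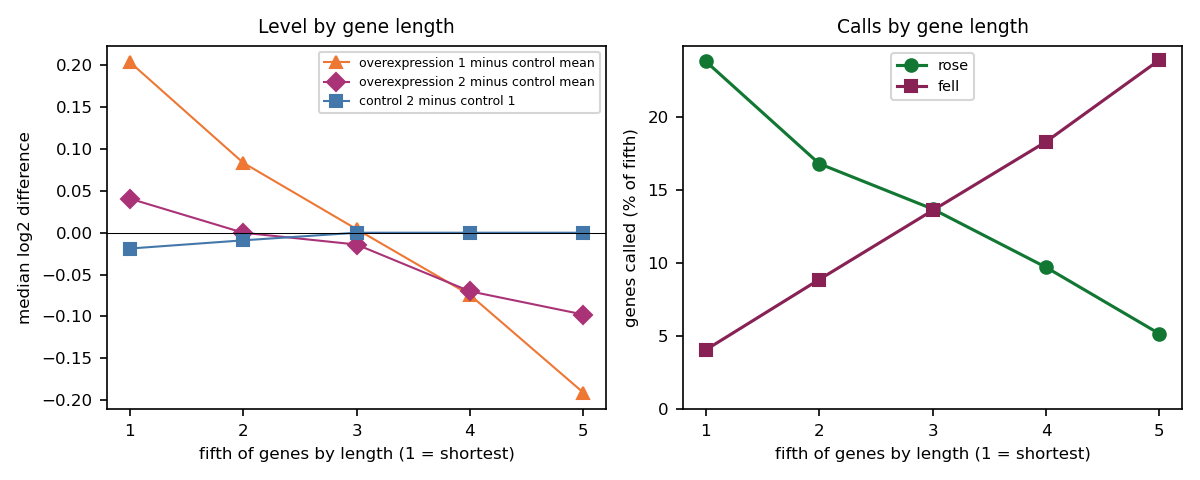
Left, median log2 difference by gene length, from the shortest to the longest of 5 groups, for each overexpression library minus the control mean and for control 2 minus control 1. Right, percent of each group that rose or fell. The library 1 line is the steepest, the control line is nearly flat, and the risen and fallen shares cross in the middle group.

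The RKO change was set against the SW480 contrast with CYP1B1 higher (shNT minus shCYP1B1) for the genes that moved furthest in RKO. By the interaction test 20 of 24 differed between the lines, and CD99-2, IFIT1, KRT13 and LOC101928841 did not pass. The share over all genes tested was 42.6%. Because these genes were chosen for a large RKO change, which is part of the difference tested, their count is fixed in part by the choice and is not read against that share. The lines share no library but differ in vector and in the level of CYP1B1, which cannot be told apart from the line itself.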

How the data were processed

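Raw read counts of 16829 genes in 8 libraries were deposited by the authors, with an FPKM value beside each. The submitters' processing notes name the build GRCh38.p13. Aligner, counter, annotation and strand setting: not given in the sources used here. Reads of overlapping or antisense genes may therefore be mixed. FPKM deposited by the authors were used for an alternative test and for gene length: all 116648 values above 0 lay within 0.1% of count over length and library total. RNA came from 1 µg inputs with a stranded mRNA kit, per the labels' protocols. Members and gene lists were chosen with earlier results of these data known. 

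Counts of all 8 libraries were fitted by group with edgeR 4.0.16 (glmQLFit and glmQLFTest, TMM, filterByExpr with a minimum count of 10 and total of 15, 4 residual degrees of freedom) in R 4.3.3, and p-values were adjusted over 14157 genes by Benjamini-Hochberg at 0.05. Each SE is the size of the log2 fold change divided by the square root of the test's F statistic, not an error fitted by edgeR. Per-library differences are log2 CPM with a prior count of 0.5. Standard deviations over 2 libraries are not given because both values are. With 2 libraries against 2 an exact permutation test cannot go below p = 0.333, so none was used. The test was checked on simulated data. Named genes were CYP1B1 and line markers, the 12 rising and 12 falling furthest (by the smaller of the 2 library differences, at least 5 CPM in the higher group, no overlap), the 8 each way that differed most between overexpression libraries, called genes under 0.5 CPM in one group and at least 2 CPM in the other, and up to 4 called members of each list with preset heads. Some list members and markers are not reported here. The genes of the stress, ligase and growth factor lists beyond these, and members named because few moved, were chosen after their values were seen. Alternatives used DESeq2 1.42.0 and limma 3.58.1. Promoter sequences are RefSeq's (GRCh38.p14).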

Additional observations from a re-analysis of the deposited data

Results flagged for a closer look

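The RKO change and the SW480 change between shNT and shCYP1B1, both taken as higher minus lower CYP1B1, differed by the interaction test for 20 of the 24 genes named for their change in RKO, and not for CD99-2, IFIT1, KRT13 and LOC101928841. The RKO change that chose these genes is part of the difference, so a high count follows in part from the choice. The values here are the RKO log2 fold change less the SW480 one. Among genes that rose in RKO the difference was 3.24 for HSPA1A, 3.21 for HSPA1B and 1.35 for the chaperone DNAJA1, 2.97 for the protease MMP15, 2.48 for the actin bundler FSCN1, 1.71 for KREMEN2, 1.59 for STMN3, 1.08 for SCRIB, 0.85 for ZNF672 and 0.84 for LRRC26. Among genes that fell in RKO it was -8.06 for ESRP1, -4.58 for NPIPB2, -4.54 for BEST1, -4.40 for ANKRD31, -2.81 for INHBE, -2.81 for NOMO3, -2.29 for PTPDC1, -1.69 for AKNA, -1.45 for SLFN5 and -0.80 for CREB5. Each difference has the sign of the RKO change by which the gene was chosen. It does not show whether the SW480 change was opposite or only smaller. The SW480 log2 fold change was 3.16 for ESRP1, 2.47 for ANKRD31 and -1.13 for FSCN1, each opposite to RKO. For CREB5 it was -1.11, in the direction of RKO. For HSPA1B and DNAJA1 it was -0.27 and 0.30, neither passing in SW480 (adjusted p = 0.464 and 0.146 by the same test). These are examples from the genes named.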

How the results depend on the processing

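Counts of called genes moved with the library left out: 1784 to 5629 genes called, 891 to 2702 risen and 893 to 2927 fallen. The same leave-outs gave 10 to 24 risen proteasome genes, 15 to 40 risen mitochondrial ribosomal genes, 10 to 22 fallen integrated stress response genes and 37 to 131 fallen ZNF genes. Tested against a fold change of 1.5, 89 genes were called (37 risen, 52 fallen), with 5 risen chaperone genes, 1 fallen stress response gene, 1 fallen tRNA ligase gene, 3 fallen transporters and 0 proteasome, mitochondrial ribosomal or ZNF genes, and 1961 genes differed between the lines. The RKO libraries alone gave 2294 calls (1133 risen, 1161 fallen, 63 fallen ZNF genes) and ended those of CYP1A1 and YAP1. limma on log2(FPKM + 0.1) gave 1298 risen genes, and limma on log2(FPKM + 1) without a filter gave 10 fallen stress response genes. With the length trend removed, an alternative chosen after seeing the data, 13 proteasome and 14 mitochondrial ribosomal genes rose. Without overexpression replicate 2 the log2 fold changes of EIF3C and MFSD14C reversed, within leave-out ranges of -1.26 to 2.79 and -0.63 to 0.85. The cause of these changes was not tested.

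With the replicate block 3653 genes were called, 3517 of them shared with the fit without it. The labels do not say whether the replicate numbers pair the samples. The differences between replicates 2 and 1 in the 2 groups had r = -0.06 across 10287 genes, which are not independent. A low r cannot exclude pairing, since the overexpression libraries stood further apart than the controls. With 2 libraries a group, small changes of low-count genes were not detectable at this depth.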
